A study of Mus musculus with 46 samples.

Results

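The genes described here belong to the gene families of the machinery that docks and fuses synaptic and dense-core vesicles. They were chosen by symbol, as every entry of the RNA count table whose name belongs to the synaptotagmins (Syt), syntaxins (Stx), syntaxin-binding proteins (Stxbp), VAMPs, SNAP-25 family (Snap23, Snap25, Snap29, Snap47), Snap91, Rab3 GTPases, synapsins (Syn1 to Syn3), SV2 proteins, complexins (Cplx), RIMs or Unc13 proteins. The rule found 75 of the 31854 entries of the table. It reads symbols and no measured value, but was set with earlier results of these data known. The largest families were the synaptotagmins with 18 entries, the syntaxins with 15 and the Stxbp proteins with 8. Some members of these families act on other membranes, such as Stx18 in the endoplasmic reticulum and Stx12 in endosomes. Of the 75, 3 are second entries of a symbol (Rims1.2, Syt6.2 and Vamp1.2).

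Translating ribosome affinity purification (TRAP) RNA-seq and ATAC-seq were made from the arcuate nucleus of mice, with the question of how hunger neurons respond to fasting and to leptin. All mice used here carried the Cre-dependent NuTRAP allele, which marks ribosomes with GFP (fused to L10a) and the nuclear envelope with mCherry. Cre came from AgRP-IRES-Cre in the AgRP line and from POMC-IRES-Cre in the POMC line. AgRP neurons drive feeding and POMC neurons restrain it. Male NuTRAPAgRP mice on C57BL/6J, 6 to 11 weeks old, were fed ad libitum or fasted for 18 to 20 h, injected with vehicle or with leptin at 5 mg/kg, and killed 3 h later.

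The fed group was fed mice given vehicle (3 RNA libraries, numbered 1, 3 and 4), the fasted group was fasted mice given vehicle (4 libraries) and the leptin group was fasted mice given leptin (4 libraries). Each AgRP library was a pool of 4 arcuate nuclei. The POMC line had 2 libraries in each of the fed, fasted and leptin states, as the labels name them. ATAC-seq was made from GFP-sorted nuclei of NuTRAPAgRP mice with 2 libraries per state, and from AgRP-positive and AgRP-negative nuclei with 2 libraries each. The paper states that the positive and negative nuclei were sorted from shared pools of tissue. RNA libraries held 25581041 to 54511107 counts, and ATAC-seq libraries held 8263234 to 17190963 counts for the states and 8685497 to 11177208 for the sorted nuclei. The Cre lines set which cells were tagged, and in such bulk RNA a change in the share of cells and a change in RNA per cell cannot be told apart.

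Vesicle release follows a shared sequence of steps. Synapsins tether vesicles in reserve, Rab3 GTPases and RIMs bring them to the active zone, and Unc13 proteins prepare the SNARE proteins. A syntaxin, Snap25 and Vamp2 then zip into the SNARE complex that pulls the membranes together, complexins clamp and promote that step, and synaptotagmins such as Syt1 trigger it when calcium enters. AgRP neurons release GABA as well as the peptides AgRP and NPY, so they use this machinery for small clear vesicles and for dense-core vesicles alike.

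The labels were checked against marker genes. The summed level of 6 AgRP neuron markers (Npy the most abundant, none at 0) was 1653 to 2335 CPM (counts scaled to a common library total) in AgRP fed, 2954 to 6442 in AgRP fasted and 2150 to 6378 in AgRP leptin libraries, against 110.3 to 201.4 in POMC libraries. The 5 POMC neuron markers (Pomc the most abundant, none at 0) summed to 1701 to 3108 CPM in POMC libraries and to 134.5 to 191.0 in AgRP libraries. Each line therefore held the markers of its name, and the AgRP marker sum was higher in every fasted library than in any fed library. The part of this difference in the results below was not tested.

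A set of libraries stood apart. The 8 astrocyte markers (Slc1a2 the most abundant, none at 0) summed to 21074 to 26830 CPM in the 3 AgRP libraries numbered 4, against 2851 to 4544 CPM in the other 8 AgRP libraries. In the POMC line they summed to 24419 to 28052 CPM in the 3 libraries numbered 2 and to 5959 to 6904 CPM in those numbered 1. The numbers ran across the states, so that every state of a line held 1 such library. Of the 65 members with a mean over 1 CPM, 7 were more than 1.5 times as high in these libraries as in the others of their group in all 6 cases (Stx17, Syn3, Vamp2, Stxbp4, Rab3c, Stxbp5l and Syt7), and 0 were lower by that factor. The share of all genes that meet this rule is not given here, so these counts describe the members alone. The part of astrocyte RNA in these values was not tested. Results that moved without the astrocyte-rich libraries are given with and without them.

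Pan-neuronal markers (8 genes, led by Map2) summed to 2186 to 3059 CPM over all 17 libraries and oligodendrocyte markers to 456 to 1014 CPM. The sums were 48.7 to 136 CPM for oligodendrocyte precursors, 19.5 to 57.3 for microglia, 85.9 to 201.4 for tanycytes and ependyma, 55.1 to 123.2 for endothelium and 1.11 to 29.1 for pituitary genes, which were higher in every POMC library than in any AgRP library.

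The members took 1.29% to 1.53% of all counts in AgRP libraries and 1.37% to 1.57% in POMC libraries. Levels are compared between genes as CPM per kilobase (kb) of counted exon length, averaged over the 6 groups of line and state. Snap25, the plasma membrane SNARE, led with 384 CPM per kb, followed by Vamp2, the vesicle SNARE, with 379, and Snap47, a broadly expressed SNAP-25 relative, stood at 314. In AgRP fed libraries these 3 were 315 ± 67.9, 339 ± 118 and 318 ± 47.1 CPM per kb (mean ± SD, n = 3), within each other's spread.

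**Figure D1:**
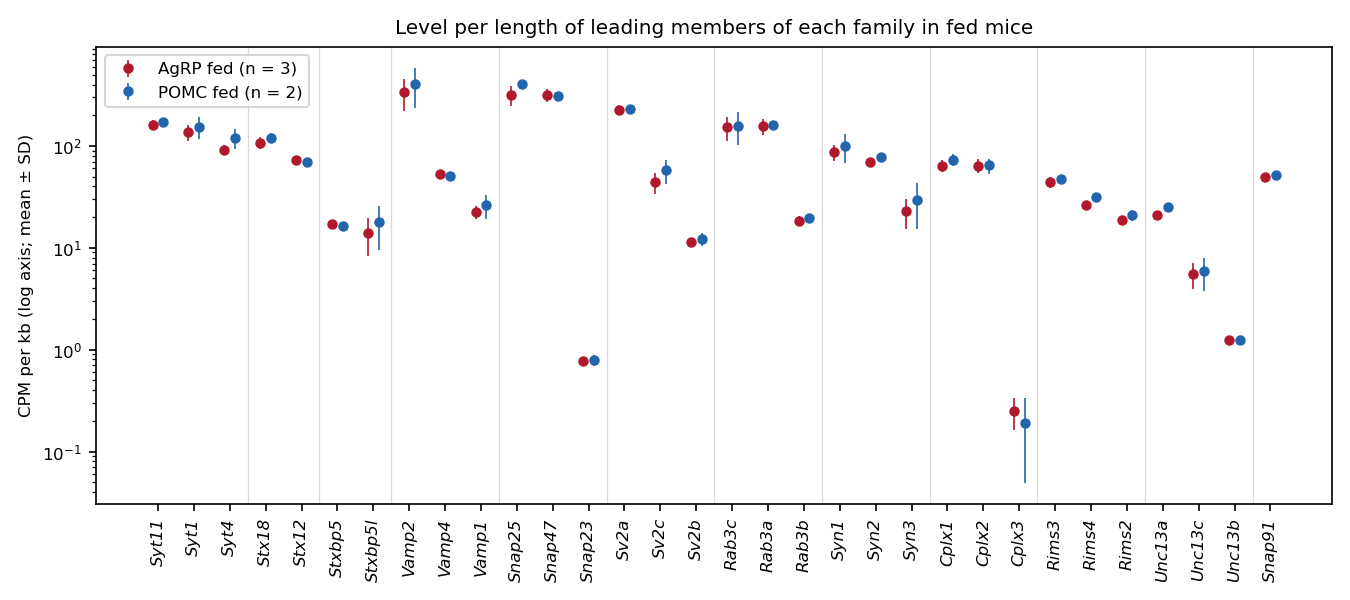
CPM per kb (log axis) of leading members of each family in AgRP fed (red, n = 3) and POMC fed (blue, n = 2) libraries, as mean ± SD. Vamp2, Snap25 and Snap47 stand near the top, and Snap23 and Cplx3 lowest of those plotted.

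Among the vesicle proteins, Sv2a, a glycoprotein of the vesicle membrane, averaged 229 CPM per kb, Sv2c 68.0 and Sv2b 12.7. The leading synaptotagmins were Syt11 (165), Syt1 (147), the calcium sensor of fast release, and Syt4 (97.8). Of the Rab3 GTPases, Rab3c (164) and Rab3a (158) were close, and Rab3b (23.2) was far lower. Stx18 (114), a syntaxin of the endoplasmic reticulum, led the syntaxins, and Stx12 was at 80.7. These values are all CPM per kb averaged over the 6 groups.

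The regulators of fusion lay lower on the same scale. The synapsins stood at 88.9 (Syn1), 67.04 (Syn2) and 26.2 (Syn3) CPM per kb, and the complexins at 66.5 (Cplx1) and 61.1 (Cplx2), with Cplx3 at 0.185. Snap91, the clathrin adaptor AP180, stood at 47.8. The RIMs, scaffolds of the active zone, were led by Rims3 (43.9), Rims4 (28.2) and Rims2 (20.1). The priming factor Unc13a stood at 22.5, above Unc13c (5.30) and Unc13b (1.18). The third VAMP by level, Vamp1 (24.9), followed Vamp4 (53.7), and Stxbp5 (17.5) and Stxbp5l (15.8) were lower still. Snap23, the SNAP-25 relative of non-neuronal cells, was at 0.810 CPM per kb.

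The kit did not mark strand, so reads of overlapping genes cannot be told apart. In GENCODE M21, exons of 10 of the 72 members that could be looked up shared bases with exons of another protein-coding gene, in 3 cases over 10% of the member's exon bases: Syn3 with Timp3 (14.1%), Stx18 with Nsg1 (12.5%) and Snap47 with Jmjd4 (11.6%), all on the opposite strand. Unc13a shared 3.92% with Colgalt1. The authors altered the annotation to reduce such overlaps, and the levels of Syn3, Stx18 and Snap47 are given as uncertain for this reason.

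A mean over 1 CPM was reached by 65 members, which entered the tests. The other 10 were Cplx3, Cplx4, Stx11, Stx19, Stxbp3-ps, Syt6.2, Syt8, Unc13d, Vamp1.2 and Vamp5. Vamp1.2 had a count of 0 in every library, and the largest count of any of these entries in 1 library was 78, for Stx11.

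To find members that responded to food deprivation, fasted and fed AgRP libraries were compared. Sv2c and Rab3b rose, and 0 members were called lower. At an unadjusted p under 0.05, 9 members were higher and 4 lower, beside 1656 and 928 of all genes. A gene was called when its false discovery rate (FDR) in edgeR's quasi-likelihood test was under 0.05 and its absolute log2 fold change over 0.5. By this rule 3.89% of the 13401 genes tested were called (378 or 2.82% higher, 143 or 1.07% lower), and 2 of the 65 members. The share of members is close to that of all genes.

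Sv2c (ENSMUSG00000051111, chr13:95954594-96132577, minus strand, GRCm38) encodes the SV2 isoform that is restricted to few brain regions. Its level was 161.6, 178.3 and 248.9 CPM in the fed libraries numbered 1, 3 and 4, and 368.3, 324.9, 443.3 and 565.7 CPM in the fasted libraries numbered 1 to 4. Every fasted library stood above every fed library, and the library numbered 4 was the highest of its group in both states. Its log2 fold change was 1.13 (SE 0.23, edgeR FDR = 0.0167), a 2.19-fold rise with a 95% interval of 1.54 to 3.11. The call was lost when the fasted library 3 (FDR = 0.0565), fed library 1 (0.0861) or fed library 3 (0.0727) was left out, with a log2 fold change of 1.00 or more in each case.

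Rab3b (ENSMUSG00000003411, chr4:108879063-108943324, plus strand) encodes a small GTPase of secretory vesicles. It was at 83.7, 81.8 and 68.6 CPM in the fed libraries and at 140.6, 119.0, 159.2 and 134.9 CPM in the fasted libraries. The groups did not overlap, and the fed library numbered 4 was the lowest of all. Its log2 fold change was 0.84 (SE 0.12, edgeR FDR = 0.00244), a 1.79-fold rise with a 95% interval of 1.50 to 2.13. This call held under every alternative tried.

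Within their families these shifts changed the balance of isoforms. Sv2c made up 15.6% ± 2.53 of the summed per-length level of the 3 SV2 genes in AgRP fed libraries (SD, n = 3), 28.4% ± 6.32 in fasted (n = 4) and 26.0% ± 3.44 in leptin libraries (n = 4). Rab3b made up 5.76% ± 1.36, 9.79% ± 2.00 and 9.02% ± 1.64 of the Rab3 sum in the same groups. In the POMC line the Sv2c share was 19.1%, 20.9% and 19.8% and the Rab3b share 5.85%, 5.78% and 5.35% in fed, fasted and leptin libraries (n = 2 each). Both shares were higher in every fasted AgRP library than in any fed AgRP library, and in POMC libraries the ranges of the 3 states overlapped. These shares were not tested.

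**Figure D2:**
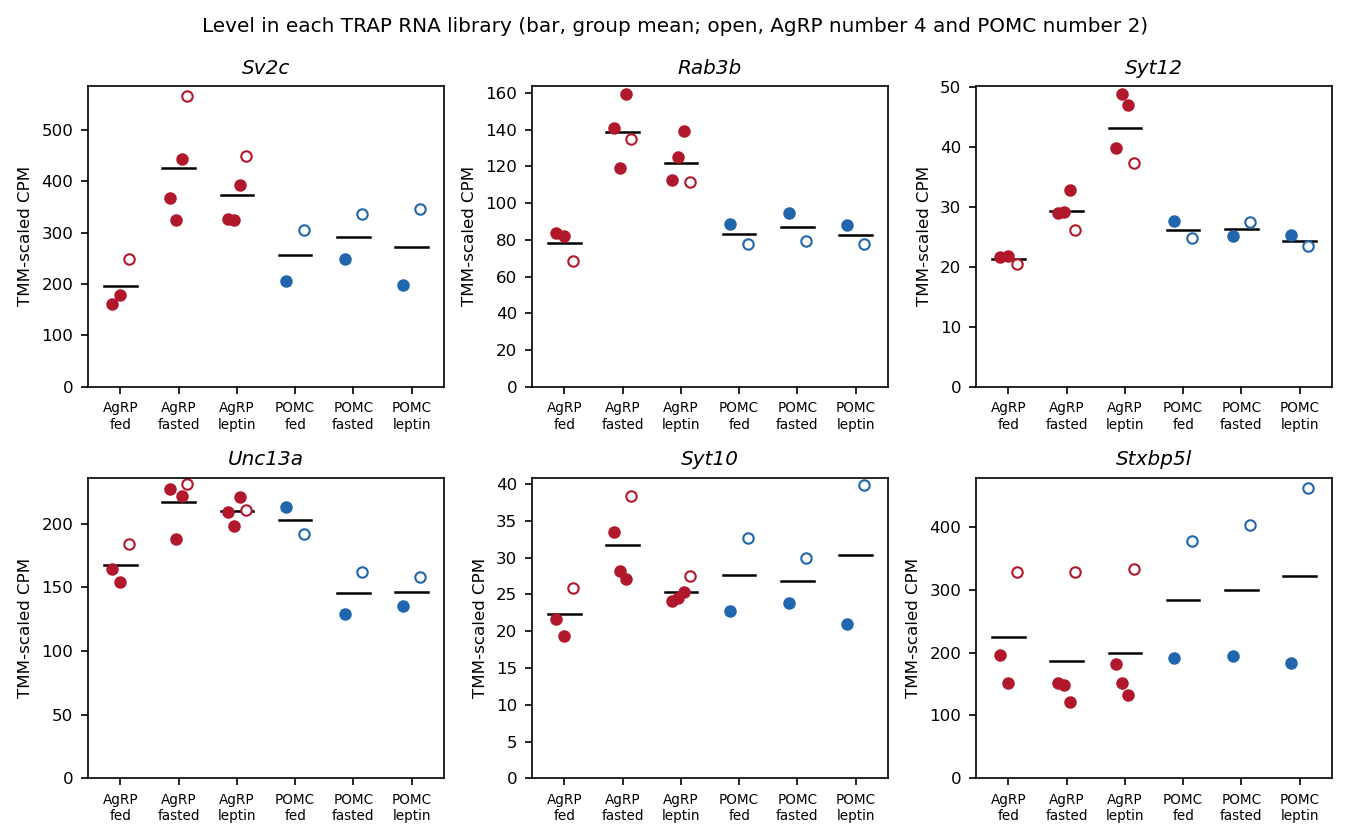
TMM-scaled CPM of 6 members in each of the 17 TRAP RNA libraries by line and state (points, libraries; bars, group means; open points, AgRP libraries numbered 4 and POMC libraries numbered 2). Sv2c and Rab3b sit higher in AgRP fasted and leptin than in AgRP fed libraries, Syt12 is highest in AgRP leptin libraries, and Stxbp5l splits by library number in both lines.

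Syt10, a synaptotagmin studied in growth factor release, lay near the threshold. It was at 21.7, 19.4 and 25.9 CPM in fed and 33.4, 28.2, 27.1 and 38.3 CPM in fasted libraries, and the groups did not overlap. With a log2 fold change of 0.52, its edgeR FDR was 0.0675. Same-numbered AgRP libraries deviated together from their group means, and with the library number as a block Syt10 was called (0.55, FDR = 0.000698), while 6.94% of all genes were called.

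Stx12, an endosomal syntaxin, Syt12 and Unc13a passed the FDR but not the size threshold. Their log2 fold changes were 0.46 (edgeR FDR = 0.0192), 0.46 (0.0253) and 0.38 (0.0473). Unc13a, the priming factor, was at 164.5, 154.2 and 184.0 CPM in fed and 227.6, 188.2, 221.9 and 231.2 CPM in fasted libraries, without overlap.

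The rest of the release core showed no call. Syn2 had a log2 fold change of -0.42 (FDR = 0.0663 by edgeR), with 462.9, 519.2 and 532.8 CPM in fed and 368.5, 439.1, 362.2 and 335.5 CPM in fasted libraries. The groups did not overlap for Syn2 either. Snap25 was at 529.6, 774.1 and 808.0 CPM in fed and 681.6, 1186.0, 1035.4 and 785.8 CPM in fasted libraries, which overlapped. On the log2 scale Snap25 differed by 0.40 (FDR = 0.457).

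The other core members had log2 fold changes from -0.26 to 0.16. Rims1 (-0.26), Cplx2 (-0.25), Cplx1 (-0.16), Syt1 (-0.08), Syn1 (-0.06) and Stx1a (-0.04) were below 0, and Rab3a (0.02), Sv2a (0.02), Rims2 (0.02), Sv2b (0.05) and Vamp2 (0.16) above it, all without a call. Vamp2 varied most, with a 95% interval of -0.66 to 0.97. Over all 65 members the median log2 fold change was 0.019, beside 0.017 for all genes, with 34 members above and 31 below 0. The 95% interval of this fit, which has no block, lay wholly within ±0.5 for 31 of the 65. For the others it reached past that size. With the library number as a block, Syn2 (-0.48, edgeR FDR = 0.000603), Unc13a (0.43, 0.000408) and Cplx2 (-0.26, 0.0165) passed the FDR but not the size threshold. So did Rims1 (-0.30, FDR = 0.0332) and Snap25 (0.28, FDR = 0.0338). The SE of Vamp2 was 0.37 without and 0.075 with the block. The block fit called 6.94% of all genes.

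**Figure D3:**
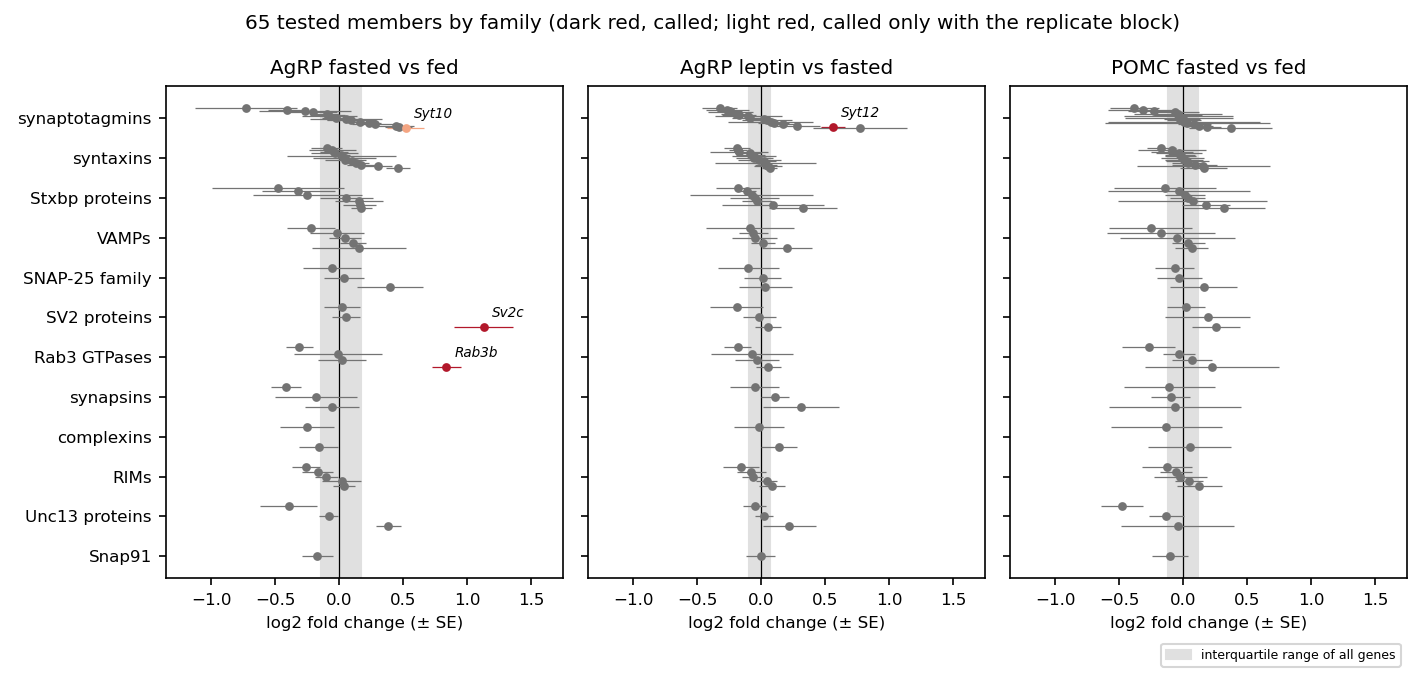
Log2 fold change (± SE) of the 65 tested members by family in AgRP fasted against fed, AgRP leptin against fasted and POMC fasted against fed (dark red, called; light red, called only with the library number as a block; grey band, interquartile range of all genes). Sv2c (1.13) and Rab3b (0.84) stand to the right in the first panel and Syt12 (0.56) in the second.

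Without the 3 AgRP libraries numbered 4, 4 members were called in fasted against fed: Rab3b, Sv2c and Syt10 were higher and Stxbp4, known from insulin-responsive vesicles, was lower. In that fit 5.28% of all genes were called. Stxbp4 was among the 7 members that were high in the astrocyte-rich libraries.

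To see what leptin did to fasted mice, leptin and fasted AgRP libraries were compared. Syt12 rose and no other member was called, where 1.83% of the 13401 genes were called (160 higher, 85 lower). Syt12 (ENSMUSG00000049303, chr19:4445908-4477447, minus strand) encodes a synaptotagmin whose membrane-binding domains lack the calcium-binding residues. It was at 28.99, 29.1, 32.8 and 26.2 CPM in the fasted and 39.8, 48.7, 46.9 and 37.2 CPM in the leptin libraries numbered 1 to 4. Every leptin library stood above every fasted library, and in every same-numbered pair leptin was the higher.

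The log2 fold change of Syt12 was 0.56 (SE 0.094, edgeR FDR = 0.00969), a 1.47-fold rise with a 95% interval of 1.28 to 1.70. The call was lost with library size alone in place of TMM scaling (FDR = 0.116) and without leptin library 2 (log2 fold change 0.50). Sv2c and Rab3b had log2 fold changes of -0.19 and -0.18, and neither was called. The median over members was -0.032, beside -0.014 for all genes, and the 95% interval lay within ±0.5 for 44 of 65 members. Of the 17 core members, 14 had such an interval.

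Leptin libraries were also set against fed libraries, which shares both groups with the comparisons above. Syt12 was at 21.7, 21.9 and 20.5 CPM in fed libraries, below every leptin library, with a log2 fold change of 1.02 (edgeR FDR = 0.000495), or 2.03-fold. Sv2c (0.94, FDR = 0.0300) and Rab3b (0.65, FDR = 0.00666) were called as well, where 5.48% of all genes were called. Sv2c was at 326.1, 325.6, 393.7 and 449.2 CPM and Rab3b at 112.4, 125.3, 139.0 and 111.4 CPM in leptin libraries. For both genes every leptin library stood above every fed library.

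Syt17, a synaptotagmin of the early secretory and endosomal pathway, was at 37.9, 45.4 and 52.5 CPM in fed and 24.7, 35.0, 33.8 and 34.0 CPM in leptin libraries, without overlap. It had a log2 fold change of -0.50 (edgeR FDR = 0.0631) and was called with the library number as a block (-0.50, FDR = 0.00103, 8.57% of genes called). In fasted against fed its log2 fold change was -0.41 (FDR = 0.151). The call of Sv2c in leptin against fed was lost without fed library 1 (FDR = 0.123), fed library 3 (0.103) or leptin library 3 (0.0714). That of Rab3b was lost with library size alone (0.0673).

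The same comparisons in the POMC line called no member. In POMC fasted against fed, edgeR called 0% of 13412 genes, with 135 higher and 147 lower at an unadjusted p under 0.05 and 0 higher and 3 lower by DESeq2. Among the members 1 had an unadjusted p under 0.05, Unc13a, with 213.3 and 192.1 CPM in fed and 129.0 and 162.4 CPM in fasted libraries (log2 fold change -0.48). Both fasted libraries stood below both fed libraries. In POMC leptin against fasted, edgeR also called 0% of genes (115 higher and 36 lower at an unadjusted p under 0.05, 9 and 1 by DESeq2), and no member had such a p. With the library number as a block, 3 and 8 genes were called, none of them a member. On data simulated for POMC fasted against fed, edgeR recovered 0 of 197 planted changes of 1 on the log2 scale. DESeq2 recovered 103 of them, with 53 false calls. The lack of edgeR calls in this line therefore does not by itself show a lack of change.

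Depth was similar, but with 2 libraries per state the POMC intervals were wide. They lay within ±0.5 for 27 of 65 members in fasted against fed and for 32 in leptin against fasted. Sv2c was at 206.7 and 306.2 CPM in POMC fed, 248.4 and 337.0 in fasted and 198.8 and 347.1 in leptin libraries, with the library numbered 2 the higher in each state. Rab3b stayed between 77.5 and 94.3 CPM in all 6 POMC libraries, and Syt12 between 23.4 and 27.6 CPM.

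**Figure D4:**
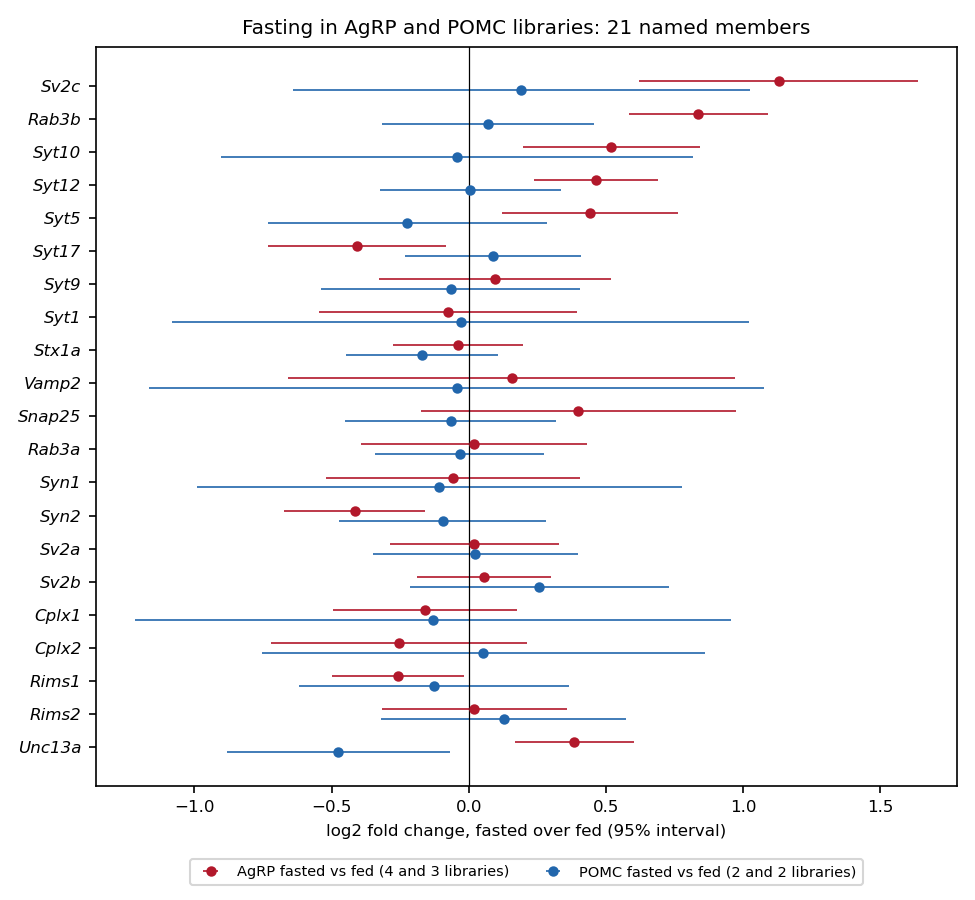
Log2 fold change of fasted over fed libraries with its 95% interval for 21 named members in the AgRP line (red, 4 and 3 libraries) and the POMC line (blue, 2 and 2 libraries). The intervals of Sv2c and Rab3b exclude 0 in the AgRP line, and for Unc13a the lines lie on opposite sides of 0 (0.38 and -0.48).

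Whether the fasting effect differed between the lines was tested as an interaction. Of 13435 genes 0.164% were called, and 0 members. Unc13a came nearest, with a difference of 0.85 on the log2 scale (edgeR FDR = 0.0650), ahead of Rab3b (0.76, FDR = 0.142) and Sv2c (0.93, FDR = 0.488). At an unadjusted p under 0.05, 6 members had a larger effect in AgRP and 1 a smaller, beside 5.63% and 3.33% of all genes. With the library number within each line as a block, 6.22% of genes and 6 members were called: Sv2c (1.00), Unc13a (0.91), Rab3b (0.78), Syt5 (0.65) and Syt10 (0.56) were more raised in AgRP and Syt17 (-0.51) less. Unc13a was also called by DESeq2 (0.84, FDR = 0.00266) and without the astrocyte-rich libraries (1.13, FDR = 0.0452, 0.305% of genes called).

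For the leptin effect, the interaction called 0.0819% of genes and 0 members, of which 1 had an unadjusted p under 0.05 (1.17% of genes with a larger and 1.73% with a smaller effect in AgRP had one). Syt12 had a difference of 0.67 (FDR = 0.357 by edgeR) and was called with the block (0.67, FDR = 0.0176, 0.759% of genes called). The difference between the lines passed the test only with the block among the settings run.

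The lines were then compared within each state. Line and anything else that differed between the 2 sets of mice cannot be told apart. In fed mice 3.21% of genes and 0 members were called by edgeR, with 1 member higher and 5 lower in AgRP at an unadjusted p under 0.05 (6.76% and 6.63% of all genes) and 0 calls by DESeq2. All 17 core members had a log2 fold change below 0, with a median of -0.191 beside -0.012 for all genes, and 1 of them, Unc13a (-0.27), had an unadjusted p under 0.05. The 8 pan-neuronal markers were lower in AgRP as well, summing to 2276 to 2583 CPM in AgRP fed against 2918 and 2936 CPM in POMC fed libraries, without overlap, with a median log2 fold change of -0.265. Their part in the values of the core members was not tested. Without the astrocyte-rich libraries Syt9 was called lower in AgRP, as 1 member beside 4.75% of all genes.

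In fasted mice 13.3% of genes and 2 members were called, both higher in AgRP. Rab3b was at 119.0 to 159.2 CPM in AgRP and at 94.3 and 79.4 CPM in POMC fasted libraries (log2 fold change 0.67, edgeR FDR = 0.00481). Unc13a was at 188.2 to 231.2 CPM in AgRP and 129.0 and 162.4 CPM in POMC (0.58, FDR = 0.00580). Neither gene overlapped between the lines in this state. Of the release core, Syn2 (-0.48, edgeR FDR = 0.0172) and Rims1 (-0.43, FDR = 0.0422) were lower in AgRP and passed the FDR but not the size threshold. In fed mice Rab3b overlapped between the lines, at 68.6 to 83.7 CPM in AgRP and 88.4 and 77.5 CPM in POMC, and Unc13a was the lower in AgRP, at 154.2 to 184.0 CPM against 213.3 and 192.1 CPM (-0.27, FDR = 0.357). Without the astrocyte-rich libraries 5 members were called, beside 17.9% of all genes. The call of Unc13a was lost without POMC library 1 (0.42, FDR = 0.0852) and that of Rab3b without POMC library 2 (0.54, FDR = 0.0841).

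In leptin-treated mice 11.1% of genes and 4 members were called. Syt12 (0.83, edgeR FDR = 0.000539), Rab3b (0.56, FDR = 0.0152) and Unc13a (0.51, FDR = 0.0123) were higher in AgRP and Syt9 (-0.64, FDR = 0.0413) lower. Syt9, a calcium sensor of fast release and of dense-core vesicles, was at 37.4, 42.6, 41.8 and 58.2 CPM in AgRP and 59.3 and 80.7 CPM in POMC leptin libraries. Its groups did not overlap, and the AgRP library numbered 4 lay just below the lower POMC library. Of the 4 calls, that of Syt12 alone held when each library was left out in turn.

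Other genes of the same pathways, 67 in all with 64 tested, were counted beside the members. They comprised active zone, vesicle membrane, dense-core vesicle, endocytosis and exocyst genes. In AgRP fasted against fed, 0 were called higher and 1 lower, beside 2.82% and 1.07% of all genes. The 1 was Baiap3, an Unc13-related factor of dense-core vesicles (-0.51, edgeR FDR = 0.0425). Log2 fold changes were below 0 for 10 of 12 dense-core vesicle genes, 11 of 17 active zone genes, 3 of 7 vesicle membrane genes, 6 of 20 endocytosis genes and 1 of 8 exocyst genes, beside 6289 of all 13401 genes. With the library number as a block, Synpr (-0.72), a vesicle membrane protein, and Rph3a (-0.68), a Rab3 effector, were called lower as well. That fit called 6.94% of all genes. In leptin against fasted 0 were called by edgeR, beside 1.83% of all genes. In leptin against fed Baiap3 was again the only one called without the block (-0.51, edgeR FDR = 0.0332), beside 5.48% of all genes.

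Between the lines, Rab27a, a GTPase of secretory granules, was higher in AgRP in the fed (0.55), fasted (0.64) and leptin (0.65) states. Cask, a scaffold of the presynapse (-0.998 and -0.88), Doc2b, a calcium sensor of spontaneous release (-0.92 and -0.76), Sytl4, a Rab27 effector (-0.61 and -0.72), and Amph, which acts in endocytosis (-0.76 and -0.72), were called lower in AgRP in the fasted and leptin states. Their log2 fold changes in fed mice were -0.81, -0.54, 0.08 and -0.28 in that order, without a call. Bsn, a scaffold of the active zone, was called lower in fasted mice (-0.56) and had log2 fold changes of -0.27 in fed and -0.36 in leptin mice without a call. Of all 13435 genes, 3.21% were called between the lines in fed, 13.3% in fasted and 11.1% in leptin mice. The genes named here are examples and not a count of calls. The difference between the states was not tested for them.

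Chromatin was examined at every annotated start of the members, which for some genes includes starts far inside the gene. A promoter peak was one within 1000 bases of an annotated transcript start, and 67 of the 72 members with an annotation had at least 1, with 108 tested peaks in all. In AgRP fasted against fed nuclei, 11.1% of 21905 promoter peaks were called, and 6 of the 108 at members, 3 opened and 3 closed. The median log2 fold change was -0.235, beside -0.203 for all promoter peaks.

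Peaks at Stx11 (1.34), Syt7 (1.09), a high-affinity calcium sensor, and Snap25 (0.94) opened with fasting. Those at Syt17 (-0.80), Syn3 (-0.64) and Stxbp3 (-0.53) closed. The Syt7 peak (chr19:10403477-10404235) lies inside the gene, away from its outermost start at 10389090. So does the Syn3 peak (chr10:86491361-86492486), with the outermost start at 86498896. The Snap25 peak (chr2:136712149-136712537) was at 19.0 and 23.9 CPM in fasted and 9.78 and 12.1 CPM in fed nuclei (edgeR FDR = 0.00868). The Syt17 peak (chr7:118447342-118449028) was at 25.8 and 28.97 CPM in fasted and 47.6 and 47.9 CPM in fed nuclei (FDR = 0.00219). Libraries of the 2 states did not overlap at either peak. The RNA of these genes was not called: the log2 fold changes were 0.40 for Snap25, -0.27 for Syt7, 0.16 for Stxbp3, -0.18 for Syn3 and -0.41 for Syt17, and Stx11 was not tested.

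In leptin against fasted nuclei, 0.913% of promoter peaks were called and 0 of the 108 at members. Between AgRP-positive and AgRP-negative nuclei, 21.5% of 18825 promoter peaks were called, and 16 of 85 at members, 6 more open and 10 less open in AgRP-positive nuclei, beside 6.7% and 14.7% of all promoter peaks. The open peaks were those at Stx18 (1.98), Unc13a (1.40), Syt12 (1.16), Syt5 (0.69), Rab3b (0.67) and Stxbp2 (0.59). The least open were those at Unc13c (-1.90), Stxbp6 (-1.89), Vamp5 (-1.70), Syt6 (-1.20), Stx16 (-1.03) and Sv2b (-0.77). The Unc13a peak named here is not the one over its outermost annotated start, which was not called (0.11, edgeR FDR = 0.523). The Stx18 peak (chr5:38121157-38121517) also lies inside the gene, away from its outermost start at 38038742. So does the Stxbp6 peak named here (chr12:45013459-45013663), with the outermost start at 45074709. The Stxbp6 peak over that start had a log2 fold change of -0.69.

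Promoter sequences are shown for Rab3b, whose start carried such a peak, and for Unc13a, whose start was open in both kinds of nuclei. They are RefSeq windows on GRCm38.p6 of 250 bases before to 50 bases after the start, at chr4:108878820-108879119 (plus strand) and chr8:71671708-71672007 (minus strand), 5′ to 3′, with capitals for letters that match 1 of the motifs searched on both strands.
Rab3b promoter: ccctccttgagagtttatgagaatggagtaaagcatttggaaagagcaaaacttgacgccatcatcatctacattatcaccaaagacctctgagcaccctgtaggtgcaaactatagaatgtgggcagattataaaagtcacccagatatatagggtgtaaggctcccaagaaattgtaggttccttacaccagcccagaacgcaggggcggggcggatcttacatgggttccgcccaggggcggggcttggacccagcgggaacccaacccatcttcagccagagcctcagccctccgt
Unc13a promoter: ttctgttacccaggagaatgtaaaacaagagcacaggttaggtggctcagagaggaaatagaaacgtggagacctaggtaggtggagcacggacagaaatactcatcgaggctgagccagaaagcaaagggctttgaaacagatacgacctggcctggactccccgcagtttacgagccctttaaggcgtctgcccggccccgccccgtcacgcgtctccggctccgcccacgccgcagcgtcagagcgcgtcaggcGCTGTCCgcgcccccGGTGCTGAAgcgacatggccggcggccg
The motifs searched were CRE (TGACGTCA), AP-1 (TGANTCA), STAT (TTCNNNGAA), the left (TTCAGCACC) and right (GGACAGC) parts of the REST site, and the endoplasmic reticulum stress element by its name.

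The Rab3b window held none of these motifs. Its peak was at 15.5 and 20.5 CPM in AgRP-positive and 9.48 and 13.1 CPM in AgRP-negative nuclei (edgeR FDR = 0.00557). In the Unc13a window the right part of the REST site stood at base 258 and the left part at base 273, both as reverse complements. The right part occurs in 6.56% and the left part in 0.371% of all 32851 promoter windows. The peak over the Unc13a start had a log2 fold change of 0.06 with fasting and 0.11 between the sorted nuclei, and was not called. A match is a run of letters in the window and was not tested as a site.

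Across the 71 promoter windows of 55 members in the RefSeq table, 3 held AP-1 (4.23%, beside 7.81% of all windows), 4 STAT (5.63%, beside 8.30%) and 2 CRE (2.82%, beside 1.79%). The left part of the REST site stood in 2 (2.82%, beside 0.371%) and the right part in 5 (7.04%, beside 6.56%).

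Peaks inside and within 10000 bases of the genes called in RNA were looked at next, a set chosen after the RNA results were seen. Promoter peaks of these genes are included. Of all peaks, 27% were called in AgRP fasted against fed nuclei (18.1% opened, 8.88% closed). Sv2c had 27 tested peaks, of which 7 opened, 6 in introns and 1 in an exon, and 2 closed. Syt12 had 5, of which 3 opened, 2 in introns and 1 downstream of the gene. Syt9 had 6, of which 4 opened, all in introns. Rab3b had 13 with 1 opened and 1 closed, Unc13a 7 with 1 and 1, Syt17 7 with 1 and 1, Syt10 4 with 1 opened, and Syt5 3 with 0. In leptin against fasted nuclei, where 3.08% of all peaks were called, 0 were called at these genes.

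**Figure D5:**
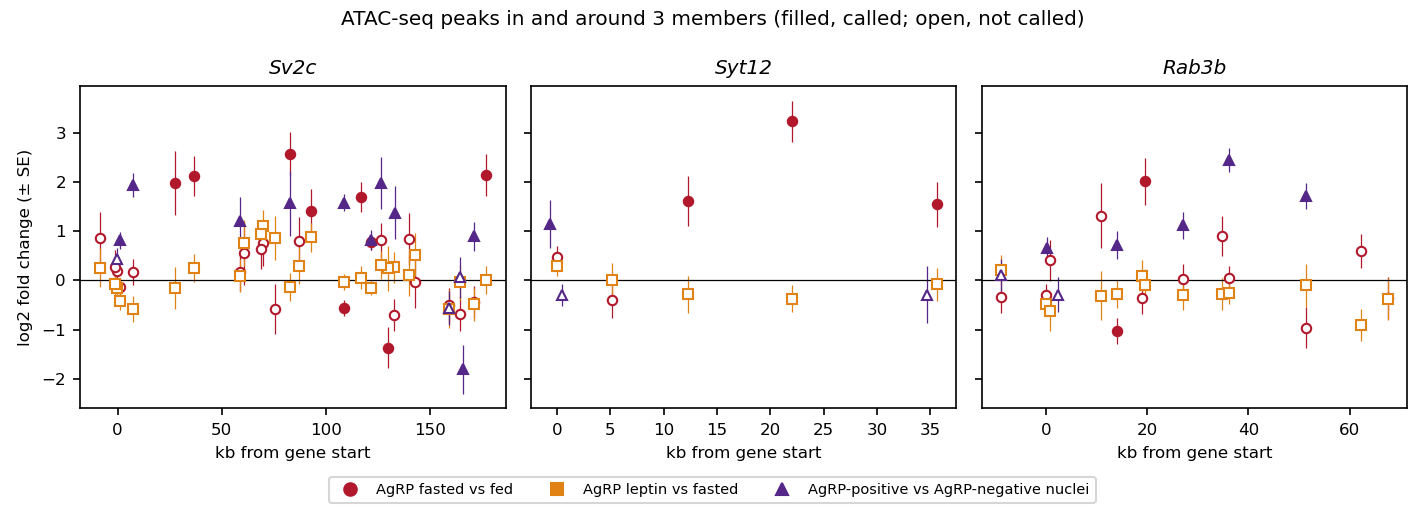
Log2 fold change (± SE) of ATAC-seq peaks in and within 10 kb of Sv2c, Syt12 and Rab3b against distance of the peak centre from the gene start in kb, for fasted against fed (circles), leptin against fasted (squares) and AgRP-positive against AgRP-negative nuclei (triangles); filled symbols were called. Sv2c and Syt12 hold peaks opened with fasting inside the gene, the highest at 2.59 and 3.25, and at Rab3b the highest value is that of AgRP-positive nuclei at 2.45.

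The central 300 bases of 3 intronic peaks are shown, those with the largest rise at Sv2c and Syt12 with fasting and at Rab3b in AgRP-positive nuclei. They are read from the plus strand of GRCm38 at chr13:96049801-96050100, chr19:4455298-4455597 and chr4:108915111-108915410, with capitals for matches to the motifs above.
Sv2c peak: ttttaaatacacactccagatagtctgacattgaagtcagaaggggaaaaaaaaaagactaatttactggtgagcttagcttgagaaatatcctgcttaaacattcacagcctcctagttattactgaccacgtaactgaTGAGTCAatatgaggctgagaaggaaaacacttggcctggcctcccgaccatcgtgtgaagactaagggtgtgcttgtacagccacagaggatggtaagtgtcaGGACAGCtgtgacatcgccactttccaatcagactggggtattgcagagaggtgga
Syt12 peak: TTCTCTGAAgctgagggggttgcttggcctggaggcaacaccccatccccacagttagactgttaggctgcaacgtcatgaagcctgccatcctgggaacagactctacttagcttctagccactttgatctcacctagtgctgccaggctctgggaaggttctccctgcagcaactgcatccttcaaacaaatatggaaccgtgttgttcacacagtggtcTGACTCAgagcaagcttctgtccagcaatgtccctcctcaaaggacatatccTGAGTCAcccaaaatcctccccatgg
Rab3b peak: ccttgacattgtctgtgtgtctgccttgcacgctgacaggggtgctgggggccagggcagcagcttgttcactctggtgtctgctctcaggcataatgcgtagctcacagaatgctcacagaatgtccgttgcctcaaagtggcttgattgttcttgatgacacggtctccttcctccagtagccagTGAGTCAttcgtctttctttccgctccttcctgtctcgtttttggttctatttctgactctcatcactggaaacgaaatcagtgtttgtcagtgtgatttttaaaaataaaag
AP-1 letters stand at base 141 of the Sv2c peak, at 223 and 275 of the Syt12 peak and at 188 of the Rab3b peak, STAT letters at base 1 of the Syt12 peak, and the right part of the REST site at base 245 of the Sv2c peak.

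AP-1 letters occur in 31.2% of the central 300 bases of all 123663 peaks, STAT letters in 12.4% and the right part of the REST site in 6.47%. The matches are a description of these 3 windows.

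The Sv2c peak, 82627 bases into the gene, held 9 and 29 counts in fed, 161 and 169 in fasted and 177 and 127 in leptin nuclei. Fed libraries were the lowest and fasted and leptin libraries overlapped. Its log2 fold change was 2.59 in fasted against fed (SE 0.43, edgeR FDR = 0.000273) and -0.13 in leptin against fasted (FDR = 0.913). The overlapping peak of the sorted nuclei was higher in AgRP-positive nuclei (1.57, FDR = 0.0442).

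The Syt12 peak, 22000 bases into the gene, held 6 and 33 counts in fed, 231 and 303 in fasted and 231 and 185 in leptin nuclei. The fasted and leptin nuclei were again far above the fed nuclei. Its log2 fold change was 3.25 with fasting (SE 0.42, edgeR FDR = 3.94e-05) and -0.37 with leptin (FDR = 0.622). The RNA of Syt12 was higher in leptin than in fasted libraries, and this peak was not called between those states.

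The Rab3b peak, 36198 bases into the gene, held 251 and 289 counts in AgRP-positive and 31 and 39 in AgRP-negative nuclei. AgRP-positive libraries were far higher, with a log2 fold change of 2.45 (SE 0.25, edgeR FDR = 2.19e-20). The overlapping peak of the states had a log2 fold change of 0.06 in fasted against fed nuclei, and was not called. Of the peaks in and around the genes, 9 of 13 at Sv2c, 5 of 7 at Rab3b and 2 of 4 at Syt10 were called more open in AgRP-positive nuclei. At the other 5 genes it was 1 of 3 at Syt12, 1 of 3 at Syt5, 1 of 4 at Syt9, 1 of 5 at Unc13a and 0 of 1 at Syt17. Of all peaks 39.6% were called in that comparison, and 23.9% were called more open. These counts are given without a test.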

How the data were processed

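RNA counts per gene were deposited by the authors, who aligned reads with HISAT2 to GRCm38 and assigned them with featureCounts on an annotation altered to reduce overlapping transcripts. ATAC-seq counts per peak were deposited by the authors after Bowtie2 (mm10), MACS2 and Bedtools. No normalised values were used, and 0 columns of per-sample values were left unmatched. The authors' log2 CPM tables and CUT&RUN lists, the whole-arcuate RNA and the IgG sample were not analysed here.

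Counts were scaled by TMM and fitted with edgeR 4.0.16 in R 4.3.3 (glmQLFit, glmQLFTest) over the 11 AgRP, the 6 POMC or all 17 RNA libraries, and over the 6 or 4 ATAC-seq libraries. Features with a mean over 1 CPM were tested, with Benjamini-Hochberg adjustment across every tested feature. To be called, a feature had to pass an FDR of 0.05 and to change by more than 0.5 on the log2 scale in either direction. p-values measure the spread between libraries; each AgRP library was a pool of mice. DESeq2 1.42.0, library size alone, no filter, other promoter windows and gene lengths, each library left out in turn and the library number as a block were tried as alternatives. Same-numbered AgRP RNA libraries deviated together (r across genes 0.588 to 0.852 over 10 pairs of libraries; other pairs -0.691 to 0.696), as did POMC libraries (0.778 to 0.810), and the pairing comes from the numbers in the labels. The scripts were tested on simulated data. There edgeR recovered most of the planted changes in the AgRP RNA comparisons and between the lines in fed mice. It recovered none in POMC fasted against fed and a minority in the ATAC-seq comparisons. In POMC fasted against fed DESeq2 recovered 103 of 197 planted changes, with 53 false calls.

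The members and gene lists were chosen with earlier results of these data known. Named were called members, members called only with the block, the 3 leading members of a family by level per length, 17 members of the release core whatever their values, called genes of the other exocytosis lists, and called promoter peaks, up to 6 each way. The values of a few genes that this rule names are not reported here. Markers of AgRP, POMC and all neurons, astrocytes, oligodendrocytes and their precursors, microglia, tanycytes and ependyma, endothelium and pituitary were summed. Of the 75 members 72 matched GENCODE M21, and RefSeq promoter windows matched 55.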

Additional observations from a re-analysis of the deposited data

Results flagged for a closer look

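In groups of 4 libraries, 13 of the 82 groups looked at (41 members in AgRP fasted and AgRP leptin libraries) had 1 library far from the other 3, with a gap to the nearest of the others, relative to the whole range, above Dixon's 95% critical value for 4 samples. For independent groups of normally distributed values, chance gives about 1 in 20. These groups share the same libraries, so 13 of 82 cannot be set against that rate. The share among all genes is not given here.

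The fasted library numbered 4 was the odd one for Rab3c (2079 CPM, others 991 to 1122), Stxbp5l (328, others 121 to 151), Rims2 (196.0, others 145 to 148), Snap23 (6.34, others 3.41 to 3.80), Syt17 (37.4, others 32.5 to 33.1) and Stx1a (39.9, others 48.4 to 50.1). The leptin library numbered 4 was the odd one for Rab3c (1891 CPM, others 960 to 1053) and Syn3 (176, others 90.9 to 100.2). These are astrocyte-rich libraries, whose summed astrocyte markers were 21074 CPM or more. The part of that difference in these values was not tested.

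In the other cases the library was another one. Fasted library 2 was high for Vamp1 (151 CPM, others 86.8 to 95.05) and low for Vamp4 (172, others 191 to 194), and fasted library 1 was high for Unc13b (15.3, others 13.98 to 14.1). Leptin library 2 was high for Snap91 (366 CPM, others 315 to 322), and leptin library 1 was low for Syt17 (24.7, others 33.8 to 35.0).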

How the results depend on the processing

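Over all alternatives 126 summary values kept their side and size, 22 did not, and none reversed. Members called in AgRP fasted against fed went from 2 to 4 without the AgRP libraries numbered 4 (chosen after the data were seen), and ranged from 1 to 3 with each library left out, at 1 without fasted library 3 or fed library 1. In leptin against fasted the 1 member became 0 with library size alone, and ranged from 0 to 1 with each library left out, at 0 without leptin library 2. In AgRP against POMC, the 2 calls in fasted mice became 5 without the astrocyte-rich libraries, 1 with that state's libraries alone and 4 without the filter, and ranged from 2 to 7 with each library left out, at 7 without AgRP library 4 and 5 without POMC library 1. The 0 in fed mice became 1 (Syt9, lower) without the astrocyte-rich libraries or with line and state as additive terms, and the 4 in leptin mice became 1 with that state's libraries alone and ranged from 1 to 6, at 1 without AgRP library 3 and 2 without either POMC library.

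For the fasting effect between lines the 0 became 1 by DESeq2 and without the astrocyte-rich libraries (Unc13a in both) and 6 with the replicate block, and for the leptin effect 1 with the block. The 6 member promoter peaks called in fasted against fed nuclei ranged from 2 to 8 with each library left out, at 2 without either fasted library. The causes were not tested. The replicate block, or pairing by number, gave 3 members in AgRP fasted against fed, 1 in leptin against fasted, 4 in leptin against fed and 0 in both POMC comparisons, and changed no other call of a member than those given above. ATAC-seq numbers did not pair the states (r = 0.183, 0.193 and -0.00895). For AgRP-negative and AgRP-positive nuclei, which shared pools, r was 0.113, and the main fit did not pair them. The ATAC-seq block gave 7, 0 and 16 member promoter peaks in place of 6, 0 and 16. All alternatives for the sorted nuclei gave 11 to 16. With longest transcripts or coding length, 32 or 33 of the 34 leading members were the same. Of the named genes' values 234 kept their side, 27 lost a call and 15 gained one. With 2 POMC and 2 ATAC-seq libraries per group, wide intervals limit what can be detected.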
